A study of Mus musculus with 47 samples.

Results

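The Nduf genes encode nuclear subunits and assembly factors of mitochondrial complex I. All protein-coding genes whose symbol starts with Nduf were taken, which gave 46 genes, and all 46 were present among the 33139 genes counted in brainstem and the 31751 counted in hippocampus. Of these, 36 encode subunits that are part of complex I, 8 (Ndufaf1 to Ndufaf8) encode assembly factors, and 2 carry the name without being complex I subunits: Ndufa4, a subunit of cytochrome c oxidase, and its relative Ndufa4l2. The subunit genes comprised 7 core subunits of the matrix arm, 9 accessory subunits of the matrix arm, 19 accessory subunits of the membrane arm and the mitochondrial acyl carrier protein Ndufab1, which is present in both arms. Genes averaging 50 or more counts per library in a region were tested. All 36 subunit genes passed in both regions, whereas Ndufa4l2 passed in neither and Ndufaf8 passed only in hippocampus, so that 44 members were tested in brainstem and 45 in hippocampus.

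Brainstem and hippocampus RNA of male C57BL/6 mice was sequenced in 47 libraries. Transgenic (TG) mice were homozygous for a human transgene driven by the neuron-specific Thy1 promoter, and wild-type (WT) mice came from the same outcross but were kept as a parallel colony. Mice of both genotypes received a standard diet (SD) or a high fat diet (HFD) from weaning until 12 months of age. Brainstem was represented by 5 WT SD libraries and by 6 libraries of each of the groups WT HFD, TG SD and TG HFD, and hippocampus by 6 libraries of each of the 4 groups. Because WT and TG mice were bred as separate colonies, the transgene and the colony cannot be told apart, and the promoter limits the transgene to neurons while bulk tissue was sequenced.

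Library totals ranged from 10020784 to 15078812 counts in brainstem and from 11945971 to 17328447 in hippocampus. Region markers fitted the labels: Neurod6, a transcription factor of hippocampal pyramidal neurons, measured 180.4 to 252.3 CPM (counts scaled to library size) in hippocampus and 3.105 to 6.147 in brainstem, and Slc6a5, the glycine transporter of inhibitory neurons of the hindbrain, measured 252.6 to 474.2 CPM in brainstem and 0 to 0.5054 in hippocampus. In such bulk samples fewer cells of a type and less RNA per cell cannot be told apart.

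Complex I (NADH:ubiquinone oxidoreductase) is the entry point of electrons from NADH into the respiratory chain. Its matrix arm oxidizes NADH on a flavin bound by Ndufv1 and passes the electrons along iron-sulfur clusters to ubiquinone, which is reduced near Ndufs7, and its membrane arm pumps protons. The proton-pumping core of the membrane arm is encoded in mitochondrial DNA (mt-Nd genes), all other subunits are encoded in the nucleus, and assembly factors help to join the parts without remaining in the finished enzyme. Neurons depend on oxidative phosphorylation, and reduced complex I activity is known from Parkinson's disease.

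Promoter sequences are shown for 4 subunit genes, chosen after their values were seen, although no member was called with surrogate variables (explained below). Ndufs7 and Ndufb6 were the subunit genes called different between TG HFD and WT HFD hippocampus when no correction for hidden variation was made, Ndufs4 had the smallest adjusted p of all members with that correction, and Ndufb8 followed the other subunit genes most closely in brainstem. The 250 bases before the annotated start are given 5′ to 3′ on the gene's strand, from RefSeq (GRCm38.p6), with a motif match in capitals.
Ndufs7: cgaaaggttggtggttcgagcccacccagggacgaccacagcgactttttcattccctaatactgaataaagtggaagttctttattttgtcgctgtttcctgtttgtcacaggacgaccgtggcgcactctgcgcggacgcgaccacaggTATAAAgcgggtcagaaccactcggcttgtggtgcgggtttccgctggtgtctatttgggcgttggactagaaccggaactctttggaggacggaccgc
Ndufb6: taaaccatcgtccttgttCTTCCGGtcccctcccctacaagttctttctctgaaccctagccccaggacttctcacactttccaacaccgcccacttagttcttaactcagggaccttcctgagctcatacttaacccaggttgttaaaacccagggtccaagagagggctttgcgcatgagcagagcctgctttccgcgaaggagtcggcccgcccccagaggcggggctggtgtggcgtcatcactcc
Ndufs4: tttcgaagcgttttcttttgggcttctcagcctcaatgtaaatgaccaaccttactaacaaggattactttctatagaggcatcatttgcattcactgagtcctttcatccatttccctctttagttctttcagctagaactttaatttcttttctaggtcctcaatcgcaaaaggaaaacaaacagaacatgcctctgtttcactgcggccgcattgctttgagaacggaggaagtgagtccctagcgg
Ndufb8: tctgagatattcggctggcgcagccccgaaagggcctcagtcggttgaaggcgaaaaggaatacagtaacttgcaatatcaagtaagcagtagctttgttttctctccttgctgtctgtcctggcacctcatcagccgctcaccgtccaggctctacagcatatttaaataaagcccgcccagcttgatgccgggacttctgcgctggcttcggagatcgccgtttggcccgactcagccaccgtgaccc
The windows lie at chr10:80249199-80249448 on the plus strand and at chr4:40279422-40279671, chr13:114388095-114388344 and chr19:44555443-44555692 on the minus strand. The capitals mark the TATA box letters TATAAA in Ndufs7 and, in Ndufb6, the reverse complement of the GABPA letters CCGGAAG. GC content of these 250 bases was 54.4% in Ndufs7, 56.4% in Ndufb6, 54.8% in Ndufb8 and 42% in Ndufs4.

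Over windows that also include the first 50 bases after the start, 40 of 46 members had a RefSeq entry (34 windows of 32 subunit genes). The searched letters (both strands) were those of YY1 (AAGATGG), GABPA (CCGGAAG), NRF1 (GCATGCG) and ESRRA (AAGGTCA), transcription factors linked to respiratory chain genes, and the CCAAT and TATAAA boxes. YY1 letters were present in 7 subunit windows (20.6%) compared with 6.34% of all 32851 promoter windows, and in Ndufs7, Ndufs4 and Ndufb8 they fell in the 50 bases that are not printed. GABPA letters were present in 11.8% of subunit windows and 8.86% of all windows, NRF1 letters in 8.82% and 3.58%, and ESRRA letters in 8.82% and 4.72%. CCAAT occurred in 29.4% of subunit windows and 37.4% of all windows, and TATAAA in 14.7% and 13.6%. Each of these shares rests on few windows and describes letters only.

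Subunit transcripts were several times more abundant than those of assembly factors. Expressed as CPM per kilobase of the longest principal transcript, subunit genes ranged from 9.96 to 160 with a median of 81.9 in brainstem and from 6.34 to 99.5 with a median of 66.1 in hippocampus, whereas the 8 assembly factor genes had medians of 14.8 and 13.8. In brainstem, Ndufb8 of the membrane arm had the highest level of all subunit genes (160 ± 22.8 CPM per kilobase, SD, n = 23), and Ndufb10 of the same arm was also among the highest (144 ± 15.2). Their values overlapped between libraries, so that the order of the leading genes is not resolved. In hippocampus Ndufb9 had the highest level (99.5 ± 10.1, n = 24) and Ndufb10 was again among the highest (92.9 ± 8.22), with overlapping values.

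**Figure D1:**
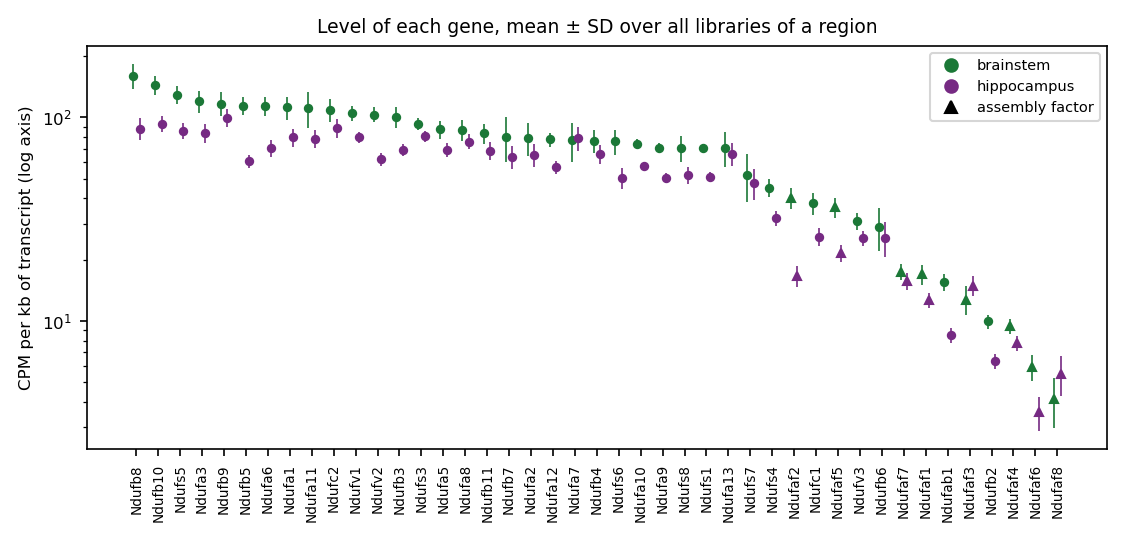
Level of 35 subunit genes and the assembly factor genes in CPM per kilobase of transcript (log axis), as the mean ± SD over all libraries of brainstem (n = 23) and hippocampus (n = 24). Subunit genes lie mostly between 25 and 160 and assembly factors mostly below them, with Ndufb2 (9.96 and 6.34) and Ndufab1 (15.5 and 8.50) as low subunit genes.

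The lowest subunit levels were those of Ndufb2 and Ndufab1, and these depend on the transcript chosen. Ndufab1 measured 15.5 CPM per kilobase of its longest principal transcript in brainstem and 54.7 per kilobase of its median transcript, and the core subunit Ndufs1, which holds iron-sulfur clusters, measured 70.7 and 289. Levels of Ndufa4 were far higher (443 CPM per kilobase in brainstem and 273 in hippocampus), and those of Ndufa4l2 were 2.22 and 1.43. Pseudogenes or copies of Ndufb4, Ndufab1, Ndufa11 and Ndufs6 were also counted, with mean counts in brainstem of 784, 318, 31.6 and 26.5, so that the values of these 4 genes are uncertain where reads were split. Ndufb1-ps, annotated as a non-coding gene in the release used here and therefore outside the set, had a mean count of 786 in brainstem and 625 in hippocampus.

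The members were next compared between genotypes within each diet and between diets within each genotype, gene by gene. Counts were fitted with edgeR's quasi-likelihood test on all tested genes of a region (13340 in brainstem, 13272 in hippocampus), with 4 surrogate variables per region, which are library scores estimated from all genes that stand for hidden variation. A gene was called where its Benjamini-Hochberg adjusted p did not exceed 0.05 and its log2 fold change was 0.3 or more in size. No member was called in any of the 10 comparisons, neither by edgeR nor by DESeq2 with the same surrogate variables. Over all tested genes, 0.142% were called in brainstem between TG SD and WT SD, 0.0525% between TG HFD and WT HFD, 0% between WT HFD and WT SD, 0.0075% between TG HFD and TG SD and 0.0075% in the interaction of genotype and diet. In hippocampus the shares were 0.098%, 0.226%, 0%, 0% and 0% in the same order. At most 19 genes were thus called in a brainstem comparison and 30 in a hippocampus comparison. At the same thresholds the study reported far more differential genes in each region. The absence of called members here therefore cannot be set against its lists.

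At the nominal level (unadjusted p up to 0.05), the same order of comparisons gave 6, 3, 2, 1 and 0 of the 36 subunit genes in brainstem with edgeR, where 10.5%, 5.59%, 5.43%, 6.91% and 4.83% of all tested genes reached this level. In hippocampus it gave 3, 2, 3, 1 and 4 subunit genes against 9.08%, 11.3%, 6.41%, 7.08% and 5.98% of all genes. DESeq2 gave 5, 3, 2, 1 and 0 in brainstem and 3, 2, 3, 1 and 4 in hippocampus. Median log2 fold changes of the subunit genes lay between -0.023 and 0.0023 over the 10 comparisons, and those of all tested genes between -0.0076 and 0.0055. Thus, with surrogate variables, the share of subunit genes at this level was above the background in some comparisons and below it in others. The 4 surrogate variables were estimated with these genes included. They accounted for 98.3% (brainstem) and 94.9% (hippocampus) of the variance of the mean subunit level between libraries. A change shared by the subunit genes could be largely removed in this way, so these counts cannot decide whether there was one.

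In brainstem on SD, the 6 subunit genes at the nominal level all had lower values in TG. They were the core subunits Ndufs8, an iron-sulfur protein, and Ndufv2, which binds an iron-sulfur cluster beside the flavin, the matrix arm subunit Ndufa7, and Ndufa3, Ndufa8 and Ndufc2 of the membrane arm. Ndufa7 had the largest fold change, with CPM of 35.1 to 45.9 (median 42.1) in WT SD and 29.8 to 39.5 (median 37.2) in TG SD. The groups overlapped, and its log2 fold change was -0.14 (SE 0.055, edgeR adjusted p = 0.336). The smallest adjusted p of a subunit gene was that of Ndufa3 (log2 fold change -0.13, SE 0.042, edgeR adjusted p = 0.246). Among assembly factors Ndufaf4, which acts with Ndufaf3 on the ubiquinone-binding part, differed most (0.12, SE 0.058, edgeR adjusted p = 0.483).

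In hippocampus on SD, Ndufv2, Ndufa10 and Ndufb9 reached the nominal level, with log2 fold changes of -0.098, -0.073 and -0.095. The adjusted p of Ndufv2 was 0.346 (edgeR). The largest change of a subunit gene was that of Ndufa6 in the opposite direction (0.11, SE 0.053, edgeR adjusted p = 0.552), and that of an assembly factor was Ndufaf8, the partner of Ndufaf5 (0.23, SE 0.13, adjusted p = 0.63). Ndufaf8 was counted at a low level of 2.26 to 5.25 CPM in TG SD, which covers the WT SD range of 3.10 to 4.40.

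For the genotype comparison on HFD in brainstem, Ndufb3, a small membrane arm subunit, had the largest log2 fold change (0.17, SE 0.049, edgeR adjusted p = 0.496). Its CPM were 63.5 to 86.4 (median 70.5) in WT HFD and 65.4 to 90.7 (median 71.7) in TG HFD. The raw values thus overlapped almost fully, and without surrogate variables the log2 fold change was 0.031. Ndufab1 (-0.16) and Ndufs3 (-0.10), a core subunit, were the other subunit genes at the nominal level (edgeR adjusted p = 0.826 for both). The 95% intervals of the 36 fold changes lay within -0.32, the lower bound of Ndufb6, and 0.26, the upper bound of Ndufb3.

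In hippocampus the same comparison gave the smallest adjusted p of a member. Ndufs4, an accessory subunit whose loss causes Leigh-like encephalopathy in mice, had the value -0.19 (log2 fold change, SE 0.057, edgeR adjusted p = 0.144). Its CPM were 45.01 to 59.4 (median 54.7) in WT HFD and 46.8 to 58.4 (median 51.4) in TG HFD, and without surrogate variables the log2 fold change was -0.041 (edgeR adjusted p = 0.768). Ndufs8 was the other subunit gene at the nominal level and had a higher value in TG HFD (0.14, SE 0.057, edgeR adjusted p = 0.31). Among assembly factors Ndufaf3 differed most (-0.13, SE 0.087, adjusted p = 0.613).

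The diet comparisons gave changes of similar size. In WT brainstem Ndufb3 had the largest log2 fold change with HFD (-0.15, SE 0.043, edgeR adjusted p = 0.896), and its CPM of 67.2, 67.3, 71.1, 86.1 and 91.1 in WT SD covered most of the WT HFD range. In TG brainstem Ndufb4 had the largest change (-0.11, SE 0.041, edgeR adjusted p = 0.572), from 71.3 to 80.9 CPM (median 77.01) on SD to 53.7 to 76.7 (median 67.2) on HFD. In WT hippocampus the log2 fold change was largest for Ndufb7 (-0.18, SE 0.052, edgeR adjusted p = 0.512), although its medians were close (41.5 CPM on SD, 42.4 on HFD) and the log2 fold change without surrogate variables was -0.00071. In TG hippocampus Ndufb6 had the largest log2 fold change (-0.12, SE 0.070, edgeR adjusted p = 0.787), and Ndufs4 was the only subunit gene at the nominal level (-0.12, SE 0.041, adjusted p = 0.518).

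Assembly factors did not pass the thresholds either. The largest changes with diet were those of Ndufaf1 in WT brainstem (-0.11, SE 0.089, edgeR adjusted p = 0.962), Ndufaf6 in TG brainstem (-0.17, SE 0.14, adjusted p = 0.864), Ndufaf8 in WT hippocampus (0.24, SE 0.14, adjusted p = 0.857) and Ndufaf1 in TG hippocampus (0.15, SE 0.058, adjusted p = 0.551). The value of Ndufaf6 was -0.0428 without TG HFD replicate 3 and that of Ndufaf1 in WT brainstem -0.2 without WT HFD replicate 8. All 8 assembly factors had positive log2 fold changes with diet in TG hippocampus (median 0.066, compared with -0.0022 for all genes), with Ndufaf1, which joins an early membrane arm intermediate, as the only one at the nominal level.

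Ndufa2, a small matrix arm subunit with a thioredoxin-like fold, is the member that the study names for its own expression data. The study describes Ndufa2 as increased in WT HFD, slightly lower already in TG SD, and not raised by HFD in TG. Its account of mitochondrial genes rests on more than this gene. It reported a brainstem gene cluster, higher in WT HFD, with mitochondrion as its most enriched term. It also reported a co-expression module that pointed toward mitochondrial pathways. In brainstem the CPM of Ndufa2 were 37.1, 46.6, 47.5, 47.9 and 49.7 in WT SD, 41.6 to 61.9 (median 55.6) in WT HFD, 31.9 to 51.9 (median 42.1) in TG SD and 28.2 to 45.8 (median 40.2) in TG HFD. The WT HFD libraries had the highest median, and their range overlapped with that of every other group. With 4 surrogate variables the log2 fold change between TG HFD and WT HFD was -0.10 (SE 0.066, edgeR adjusted p = 0.949), and with none it was -0.44 (SE 0.12, adjusted p = 0.115). In hippocampus, where the medians were 38.3, 39.4, 34.9 and 34.3 CPM in WT SD, WT HFD, TG SD and TG HFD, the values were -0.015 (SE 0.070, edgeR adjusted p = 0.963) and -0.18 (adjusted p = 0.282). Between WT HFD and WT SD the log2 fold change without surrogate variables was 0.23 in brainstem (SE 0.12, edgeR adjusted p = 0.714, 0.166 to 0.299 with each library left out) and 0.052 in hippocampus (SE 0.096, adjusted p = 0.927). Apart from the interaction term, the other contrasts of Ndufa2, and this one, with surrogate variables lay between -0.075 and -0.00086, with edgeR adjusted p of 0.846 to 0.999. Without surrogate variables, the log2 fold change between TG SD and WT SD brainstem lay between -0.169 and -0.0294 with each library left out.

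Without surrogate variables, the subunit genes of TG HFD and WT HFD brainstem showed a common direction. Of 36 subunit genes, 33 had a lower value in TG HFD, the median log2 fold change was -0.19 (all tested genes 0.0076), and the values ranged from -0.56 for Ndufs7 to 0.073 for Ndufs1. At the nominal level, 21 subunit genes were found against a background of 19.7% of all tested genes, all of them lower, and none was called (edgeR; background 0.0375%). Medians were -0.14 for the core subunits, -0.17 for the accessory subunits of the matrix arm and -0.22 for those of the membrane arm, and -0.0012 for the 7 tested assembly factors. TG HFD replicate 3 stood apart, with a mean log2 CPM of the subunit genes of 5.88 (6.13 to 6.28 in the other TG HFD libraries). It also had the lowest GC slope (-0.335) and the highest length slope (0.090) of the brainstem libraries, which are the trends of its counts with GC content and transcript length described further on. Without it the median was -0.144, 34 of 36 genes were lower and 17 reached the nominal level. The share of all tested genes at that level is not given for this fit. With 4 surrogate variables and all libraries the median of the subunit genes was -0.021 and 24 of 36 were lower.

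**Figure D2:**
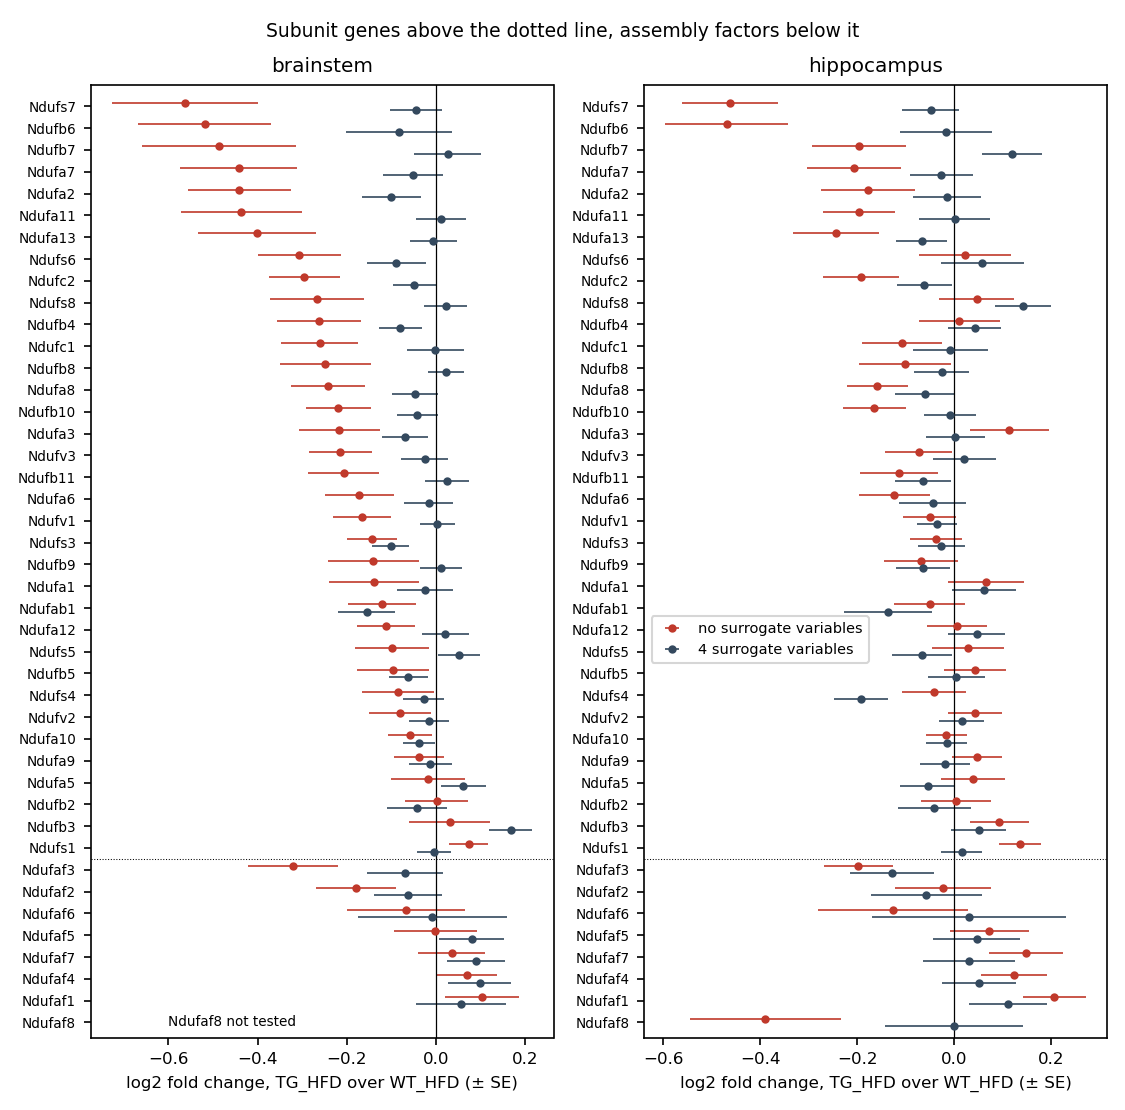
Log2 fold change between TG HFD and WT HFD (± SE) of 35 subunit genes and the assembly factors in brainstem and hippocampus, with 4 and with 0 surrogate variables. Without surrogate variables most brainstem subunit genes lie below 0, with Ndufs7 at -0.56 and Ndufb6 at -0.52, and with 4 surrogate variables the subunit genes lie between -0.16 and 0.17 in brainstem and between -0.19 and 0.14 in hippocampus.

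By role, the core subunits differed widely among themselves in this fit. Besides Ndufs7, brainstem log2 fold changes were -0.27 for Ndufs8, -0.17 for the flavin-binding Ndufv1 and -0.14 for Ndufs3 (edgeR adjusted p of 0.175, 0.175 and 0.176), whereas Ndufv2 (-0.081) and Ndufs1 (0.073) had adjusted p of 0.521 and 0.354. Of the accessory subunits of the matrix arm, Ndufa7 (-0.44) and Ndufa2 (-0.44) lay lowest and Ndufa5 (-0.017) was closest to 0. In the membrane arm, Ndufb6 (-0.52), Ndufb7 (-0.49), Ndufa11 (-0.44) and Ndufa13 (-0.40) lay lowest, and Ndufb2 (0.0018) and Ndufb3 (0.031) were the only ones at or above 0. In hippocampus Ndufb6, Ndufa13 (-0.24), Ndufb7 (-0.20) and Ndufa11 (-0.20) were again the lowest of the membrane arm, and of the core subunits Ndufs7 stood alone, with the other 6 between -0.051 and 0.14. Among assembly factors, Ndufaf3 was lowest in brainstem (-0.32, edgeR adjusted p = 0.138) and had -0.20 in hippocampus (adjusted p = 0.0889).

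The 4 groups of brainstem libraries contributed unequally to this direction. Without surrogate variables the median subunit log2 fold change was 0.10 between WT HFD and WT SD, with 29 of 36 higher on HFD, and -0.06 between TG HFD and TG SD, with 31 of 36 lower. Between TG SD and WT SD it was -0.0041, with 18 genes in each direction. The interaction term had a negative value in 35 of 36 subunit genes (median -0.16), of which 4 reached the nominal level and none was called (smallest edgeR adjusted p 0.629), against 7.77% of all tested genes at the nominal level and 0% called. Single libraries moved these values. Without TG HFD replicate 3 no subunit gene reached the nominal level in the interaction, the median between TG HFD and TG SD was -0.0336 and 24 of 36 genes were lower. Without WT HFD replicate 1 the median between WT HFD and WT SD was 0.0501, and that between TG SD and WT SD ranged from -0.0421 without WT SD replicate 7 to 0.0178 without WT SD replicate 6. These contrasts share libraries, and the WT HFD libraries enter 3 of them. The direction of all tested genes is not given beside these counts, so they are not shown to be particular to the subunit genes. In this fit the changes of all tested genes went with GC content and transcript length. Spearman's rho was 0.528 and -0.232 between WT HFD and WT SD, and -0.223 and 0.389 in the interaction. The part of these trends in the subunit counts was not tested.

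Ndufs7, the core subunit that carries the last iron-sulfur cluster before ubiquinone, illustrates the spread. In brainstem it measured 42.4, 45.3, 51.4, 53.3 and 54.3 CPM in WT SD, 47.3 to 81.9 (median 69.1) in WT HFD, 28.2 to 52.7 (median 47.7) in TG SD and 22.8 to 58.0 (median 45.9) in TG HFD. Most WT HFD libraries were higher than those of the other groups, whereas the lowest TG HFD library stood below the other 5, which measured 42.0 or more. The log2 fold change between TG HFD and WT HFD without surrogate variables was -0.56 (SE 0.16, edgeR adjusted p = 0.132). With 4 surrogate variables it was -0.044 (SE 0.058, adjusted p = 0.974).

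Ndufb6, an accessory subunit of the membrane arm, followed the same pattern at a lower level. Its CPM in brainstem were 14.3, 17.4, 18.9, 20.7 and 22.1 in WT SD, 17.2 to 30.5 (median 23.1) in WT HFD, 13.1 to 22.8 (median 17.6) in TG SD and 11.1 to 21.1 (median 16.4) in TG HFD. The log2 fold change between the HFD groups was -0.52 without surrogate variables (SE 0.15, edgeR adjusted p = 0.132) and -0.082 with them (SE 0.12, adjusted p = 0.976). No member had non-overlapping CPM between TG HFD and WT HFD brainstem, which was the case for 0.682% of all tested genes. One library decided the brainstem calls: without WT HFD replicate 8, 9 members were called lower (Ndufa2, Ndufa7, Ndufa11, Ndufb6, Ndufc1, Ndufc2, Ndufs6, Ndufs7 and Ndufaf3), among 2.05% of all tested genes, again with no surrogate variables.

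In hippocampus on HFD, Ndufs7 and Ndufb6 were called lower in TG when no surrogate variables were used, where 3.88% of all tested genes were called. Ndufs7 measured 44.9 to 62.0 CPM (median 57.3) in WT HFD and 36.3 to 44.7 (median 41.7) in TG HFD. The groups did not overlap, and the log2 fold change was -0.46 (SE 0.099, edgeR adjusted p = 0.00543). On SD the ranges overlapped, with 40.6 to 54.3 CPM (median 48.0) in WT and 30.2 to 49.6 (median 44.6) in TG. Ndufb6 measured 18.1 to 22.8 CPM (median 19.6) in WT HFD and 11.5 to 16.6 (median 14.6) in TG HFD, and its log2 fold change was -0.47 (SE 0.13, edgeR adjusted p = 0.0217). On SD it measured 12.6 to 21.6 CPM in WT and 11.1 to 21.0 in TG, so that both SD groups overlapped with both HFD groups. With 4 surrogate variables neither was called, at -0.048 (SE 0.059, edgeR adjusted p = 0.811) for Ndufs7 and -0.017 (SE 0.095, adjusted p = 0.97) for Ndufb6. Leaving out TG HFD replicate 4, TG HFD replicate 5 or WT HFD replicate 5 without surrogate variables ended the call of Ndufb6 and kept that of Ndufs7.

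Among the members, 4 had non-overlapping CPM between the HFD groups of hippocampus, compared with 4.15% of all tested genes. They were Ndufs7, Ndufb6 and the membrane arm subunit Ndufc2, which were lower in TG HFD, and Ndufaf1, which was higher. Ndufc2 measured 60.6 to 72.3 CPM in WT HFD and 55.9 to 60.1 in TG HFD (log2 fold change -0.19 without surrogate variables, edgeR adjusted p = 0.139; -0.062 with them, adjusted p = 0.739). Ndufaf1 measured 15.2 to 18.9 CPM in WT HFD and 19.0 to 21.0 in TG HFD, and its log2 fold change of 0.21 without surrogate variables (edgeR adjusted p = 0.049) was under the fold change threshold. In the other comparisons no member was free of overlap, against 0.532% (TG SD and WT SD), 0.427% (WT HFD and WT SD) and 0.172% (TG HFD and TG SD) of all tested genes in brainstem and 0.264%, 0.467% and 0.0226% in hippocampus.

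Over all subunit genes the differences in hippocampus were smaller in size. Without surrogate variables 21 of 36 subunit genes were lower in TG HFD, with a median of -0.046, and 9 reached the nominal level against 21.9% of all tested genes. Ndufs1 was the only one of these 9 that was higher (0.14, edgeR adjusted p = 0.0529). For Ndufaf8 the log2 fold change was -0.39 (SE 0.16, edgeR adjusted p = 0.131), and it was called only in fits with 1 or 2 surrogate variables, in which 4.63% and 4.78% of all tested genes were called and Ndufs7 and Ndufb6 were called as well. In brainstem Ndufs7 was called with 2 surrogate variables, among 0.187% of all tested genes.

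The relation of these differences to GC content was examined next, since transcripts differ in GC content and length. The subunit genes had a median transcript GC content of 53.0% (range 44.0 to 60.4%), above that of 64.1% of the tested genes in brainstem and 63.6% in hippocampus. They were short, with a median transcript length of 733.5 nucleotides compared with 2093 for all tested genes in brainstem, and only 13% of the tested genes were shorter than this median. Assembly factor transcripts were of lower GC content and longer (medians of 47.2% and 1166 nucleotides in brainstem).

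Without surrogate variables the log2 fold change between TG HFD and WT HFD declined with GC content among the subunit genes. Across the 36 genes Pearson's r was -0.56 in brainstem and -0.43 in hippocampus, compared with -0.54 and -0.56 across all tested genes. The 36 points come from the same libraries and are not independent replicates, so these are descriptions. With the GC content of the principal transcript r was -0.61 and -0.46. With 4 surrogate variables r was 0.045 and 0.23, and with a per-library GC correction and no surrogate variables -0.085 and 0.18.

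**Figure D3:**
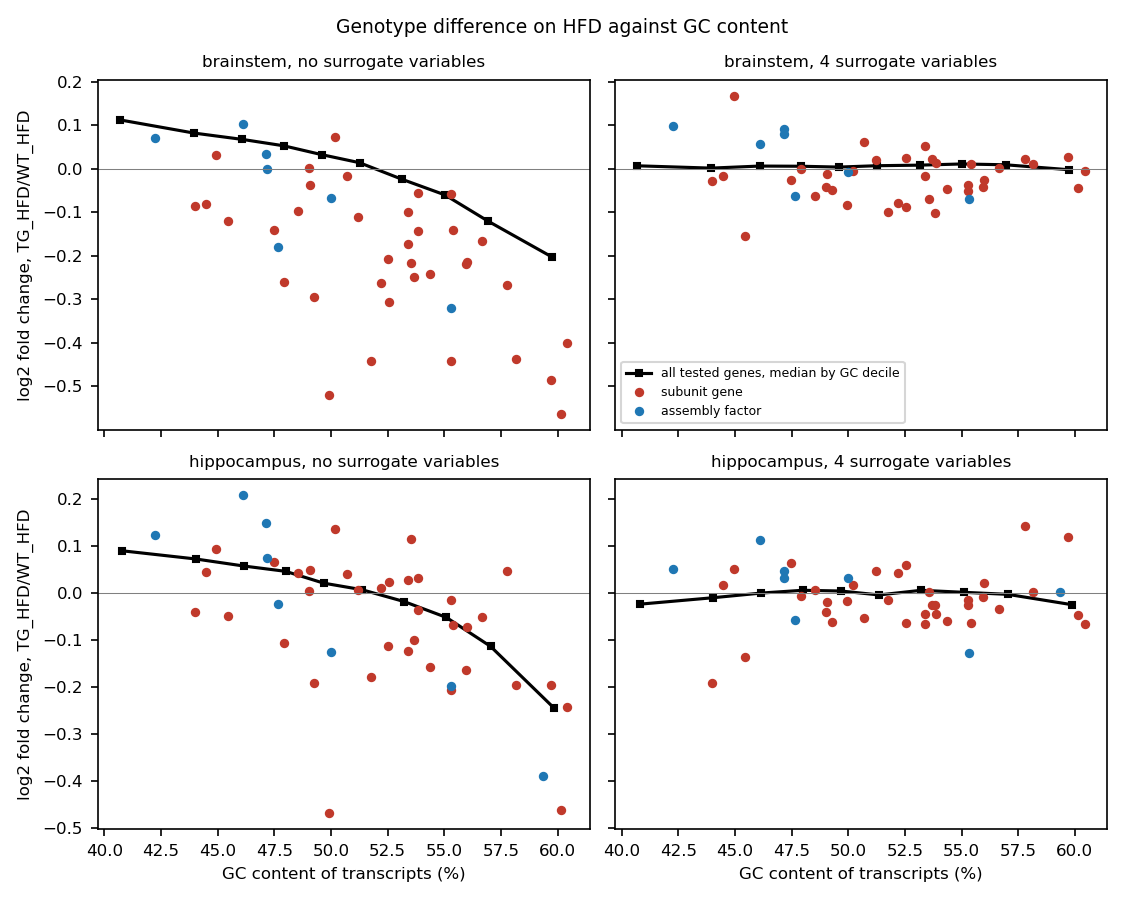
Log2 fold change between TG HFD and WT HFD against transcript GC content (%) for all tested genes and the complex I genes, in brainstem and hippocampus, with 0 and 4 surrogate variables. Without surrogate variables the subunit genes decline with GC content (r = -0.56 and -0.43), and with 4 surrogate variables no such decline is present (r = 0.045 and 0.23).

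Dividing the tested genes into 10 classes of GC content showed the same trend. In brainstem the median log2 fold change of all genes went from 0.11 in the lowest class to -0.20 in the highest, and the subunit genes went from -0.082 in the second class (3 genes) to -0.46 in the highest (4 genes). In hippocampus all genes went from 0.089 to -0.25 and subunit genes from 0.044 (3 genes) to -0.24 (3 genes). In brainstem the subunit genes lay below the median of all genes in each of the 9 classes that held any. Ndufs7 has a GC content of 60.2%, near the upper end, and Ndufb6 one of 49.9%, which is below the median of the subunit genes.

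In brainstem the median of the subunit genes between TG HFD and WT HFD was -0.19 without surrogate variables, -0.16 with the per-library GC correction, -0.12 with a correction for length and -0.10 with both. Of 36 subunit genes 33, 34, 31 and 29 were lower in the same order, and 21, 18, 18 and 16 reached the nominal level. Without correction 19.7% of all tested genes reached that level. The matching shares are not given here for the corrected fits, so their counts cannot be judged against a background. With the 3 corrections no member was called, among 3, 16 and 9 called genes. In hippocampus the median was -0.046 without correction and 0.0043, -0.023 and -0.0043 with the 3 corrections. There the GC correction left no member called, among 70 called genes in place of 515, and a correction for GC content and length together left Ndufb6 called among 99 genes.

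The GC trend of each library was also measured on the tested genes outside the set, as the slope of its log2 deviation from the mean library per 10% of GC content. On HFD the mean slope was -0.040 in TG and 0.12 in WT brainstem (difference -0.16, two-sided exact permutation test p = 0.0303, adjusted over 8 tests 0.121, n = 6 and 6). In hippocampus it was -0.058 in TG HFD and 0.10 in WT HFD (difference -0.16, exact permutation p = 0.00649, adjusted 0.0519, n = 6 and 6), with 0.00216 as the smallest p this design allows. Leaving out WT HFD replicate 8 gave -0.18 with an adjusted p of 0.0173 in this exact permutation test. In brainstem the difference on HFD ranged from -0.191 to -0.0994 with each library left out. TG HFD replicate 3 had the lowest slope of the brainstem libraries (-0.335). Between WT HFD and WT SD the differences were 0.11 (exact permutation p = 0.0693, adjusted 0.139) and 0.096 (p = 0.0476, adjusted 0.127). The other 4 tests, on SD and within TG, had adjusted p of 0.372 to 0.833.

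The subunit transcripts varied together between libraries of the same group. The mean correlation of log2 CPM within groups over the 630 pairs of subunit genes was 0.56 in brainstem and 0.56 in hippocampus, with 94.3% and 96.7% of the pairs positive, compared with 0.0012 and 0.00089 for all tested genes. It was 0.19 and 0.18 among the assembly factors. Ndufb8 followed the mean of the other subunits most closely in brainstem (r = 0.97) and Ndufa2 in hippocampus (r = 0.92). Ndufs1 was the exception in both regions (r = -0.22 and -0.019). In total 32 subunit genes in brainstem and 34 in hippocampus had an r of at least 0.5, 32 of them in both regions, and the values of the 36 genes correlated between regions with r = 0.80.

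The size of the variation differed between members. In brainstem the within-group SD of log2 CPM was highest for Ndufb7 (0.37), Ndufs7 (0.34), Ndufb6 (0.29), Ndufa11 (0.28) and Ndufa13 (0.27) and was 0.061 for Ndufs1. The genes with the largest differences between TG HFD and WT HFD without surrogate variables were thus also among those that varied most between mice of the same group. In hippocampus Ndufb6 (0.25), Ndufs7 (0.19) and Ndufb7 (0.19) were highest among the subunit genes, and the SDs of the 36 genes correlated between regions with r = 0.82. Of the assembly factors, Ndufaf1 and Ndufaf4 hardly followed the subunit mean (r = 0.11 and 0.026 in brainstem, 0.045 and 0.12 in hippocampus), and Ndufaf2 (r = 0.80) and Ndufaf3 (r = 0.79) followed it in brainstem.

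**Figure D4:**
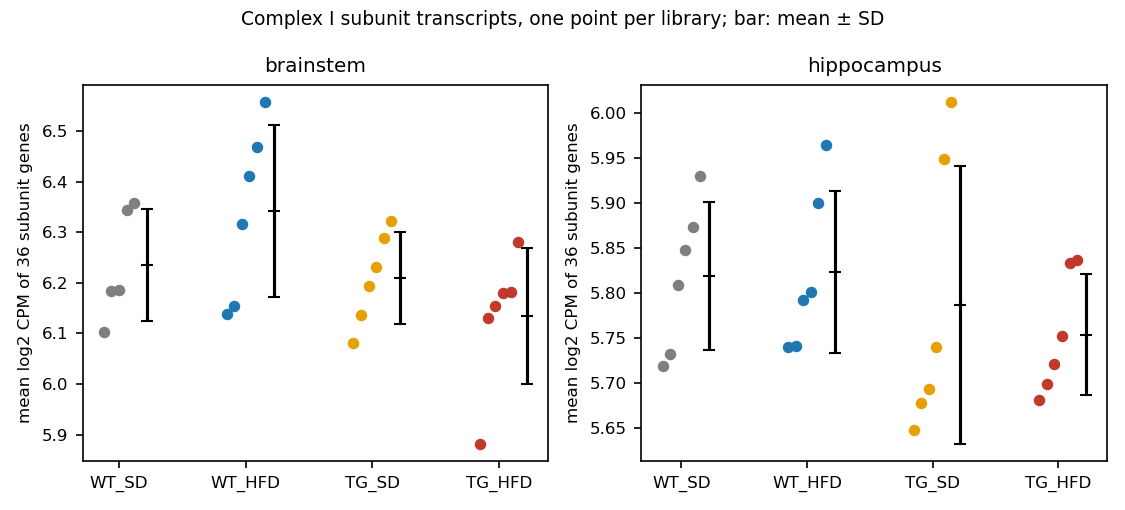
Mean log2 CPM of the 36 subunit genes in each library (points), with the mean ± SD of each group, in brainstem (n = 5 for WT SD, 6 for each other group) and hippocampus (n = 6). The groups overlap in both regions, with brainstem means of 6.23 in WT SD, 6.34 in WT HFD, 6.21 in TG SD and 6.13 in TG HFD.

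The mean log2 CPM of the 36 subunit genes summarises this common variation. In brainstem it was 6.23 ± 0.11 (SD, n = 5) in WT SD, 6.34 ± 0.17 (n = 6) in WT HFD, 6.21 ± 0.091 (n = 6) in TG SD and 6.13 ± 0.13 (n = 6) in TG HFD, and the ranges of the HFD groups overlapped (6.14 to 6.56 in WT, 5.88 to 6.28 in TG). In hippocampus the means were 5.82 ± 0.082, 5.82 ± 0.090, 5.79 ± 0.15 and 5.75 ± 0.067 (n = 6 each). The groups accounted for 28.9% of the variance between brainstem libraries and 7.97% between hippocampus libraries. The 4 surrogate variables, which were estimated with these genes included, accounted for 98.3% and 94.9%.

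The subunit mean moved with the length trend of the library. The length slope, measured on the tested genes outside the set as the log2 deviation per doubling of transcript length, had r = -0.90 (Spearman's rho -0.87) with the subunit mean over 23 brainstem libraries and r = -0.90 (rho -0.87) over 24 hippocampus libraries. Leaving out the 2 libraries with the most extreme slopes gave -0.83 and -0.85, and within groups r was -0.92 and -0.95. For the GC slope r was 0.59 (rho 0.49) in brainstem and 0.59 (rho 0.64) in hippocampus, 0.33 and 0.49 without the 2 most extreme libraries, and 0.48 and 0.61 within groups. In WT SD brainstem the relation to the GC slope was of opposite sign (r = -0.38, n = 5). No p is given, since the members were chosen with results of these libraries known.

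**Figure D5:**
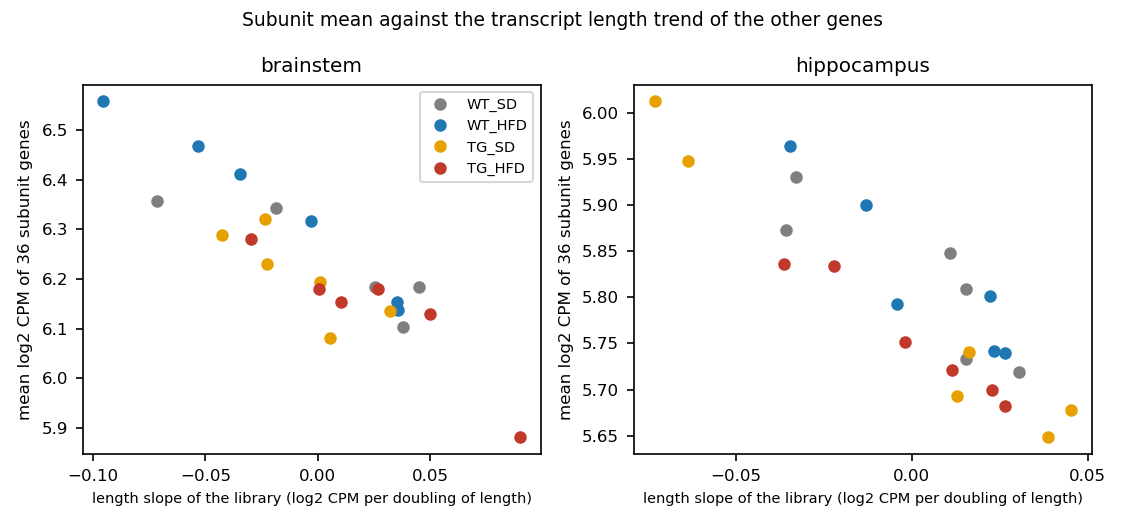
Mean log2 CPM of the 36 subunit genes of each library against its length slope (log2 CPM per doubling of transcript length), measured on genes outside the set, for brainstem (n = 23) and hippocampus (n = 24). Libraries in which long transcripts are relatively more abundant have lower subunit means (r = -0.90 in both regions).

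Length and GC slopes moved with the groups to different extents. On HFD the length slope was 0.025 in TG and -0.019 in WT brainstem, and 0.00015 and 0.0033 in hippocampus, with overlapping libraries in both. The surrogate variables accounted for 99.7% of the variance of the GC slope in brainstem and 99.1% in hippocampus, and for 98.9% and 98.6% of that of the length slope. The part of either slope in the subunit differences was not tested.

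Markers of cell types were compared between the HFD groups as mean log2 CPM of each fixed list. In brainstem the 12 lists overlapped between TG HFD and WT HFD, with differences of -0.017 for neurons, 0.13 for astrocytes, -0.11 for oligodendrocytes and -0.63 for choroid plexus. In hippocampus the neuron list differed by -0.023, whereas the endothelial list (4.57 to 4.68 in TG, 4.71 to 4.86 in WT) and the list of hippocampal neuron markers (6.86 to 6.94 in TG, 6.99 to 7.15 in WT) did not overlap. Their part in the differences of Ndufs7, Ndufb6 and Ndufc2 was not tested.

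Other genes of the pathway were not called with surrogate variables in any comparison. The 7 mitochondrially encoded subunit genes all had a higher value in TG than in WT hippocampus on SD (median log2 fold change 0.076, all genes -0.00057), and 3 of them reached the nominal level: mt-Nd1 (0.15, SE 0.040, edgeR adjusted p = 0.138), mt-Nd2 (0.13, adjusted p = 0.317) and mt-Nd6 (0.14, adjusted p = 0.24). TG SD replicates 5 and 6 stood apart in hippocampus, with mean log2 CPM of the mitochondrial genes of 11.8 and 11.7 (11.3 to 11.4 in the other TG SD libraries), the highest means of the nuclear subunit genes in the group (6.01 and 5.95) and the lowest TMM scaling factors (0.942 and 0.955). Without both, 5 of 7 were higher in TG SD (median 0.0595 with surrogate variables) and none reached the nominal level. Without surrogate variables the median was 0.15 with all libraries and -0.053 without both. The median of the nuclear subunit genes between TG SD and WT SD went from -0.029 (25 of 36 lower) to -0.12 (34 of 36 lower). Between TG HFD and TG SD it went from -0.043 (28 of 36 lower) to 0.061 (30 of 36 higher), and in the interaction from -0.034 to 0.089. Between TG HFD and WT HFD it was -0.046 and -0.039, with 21 of 36 lower in both fits. With surrogate variables 22 of 36 were lower in TG SD in either case. On HFD with surrogate variables, 5 of 7 mitochondrial genes were higher in TG hippocampus, with mt-Nd4l at 0.19 (SE 0.068, edgeR adjusted p = 0.244), and 6 of 7 in TG brainstem. Without surrogate variables all 7 were higher in TG HFD than in WT HFD in both regions (medians of 0.10 and 0.14), and none was called. Of the nuclear subunit genes 33 of 36 in brainstem and 21 of 36 in hippocampus were lower in that fit. With the GC correction and no surrogate variables only 3 of 7 mitochondrial genes were higher in TG HFD brainstem (median -0.016) and 4 of 7 in hippocampus (0.013).

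Of the assembly factors without the Nduf name 11 were tested, and 1 reached the nominal level on SD in each region (Foxred1 in brainstem, Tmem126b in hippocampus). On HFD the log2 fold changes in TG brainstem were -0.19 for Foxred1 (SE 0.076, edgeR adjusted p = 0.826) and 0.20 for Dmac2 (SE 0.078, adjusted p = 0.818), and that in TG hippocampus was -0.16 for Tmem70 (SE 0.066, adjusted p = 0.334). Of 8 transcriptional regulators of respiratory genes 7 were tested. In TG HFD hippocampus Gabpb1, a subunit of the GA-binding protein, had a value of 0.23 (SE 0.11, edgeR adjusted p = 0.432) and Yy1 at -0.13 (SE 0.051, adjusted p = 0.318). Esrra, a nuclear receptor that acts on genes of oxidative metabolism, was called lower in TG HFD hippocampus without surrogate variables (-0.44, edgeR adjusted p = 0.00684). In that fit 3.88% of all tested genes were called. With 4 surrogate variables Esrra was at -0.12 (SE 0.099, edgeR adjusted p = 0.694).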

How the data were processed

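Poly(A)-selected single-end libraries of mouse brainstem and hippocampus were sequenced by the authors, 1 library per mouse and region, and the authors deposited raw counts per gene, as 1 table per region. Per the labels, FastQC 0.11.9, STAR 2.7.9a and DESeq2 1.32.0 were used upstream; the study aligned to a custom genome based on Ensembl, and the counting tool and strand setting are not given in the sources used here, so that reads of overlapping or antisense genes cannot be told apart. One WT SD brainstem sample was left out by the study for RNA quality. The transgene's own row and the individual values of 1 subunit gene, which counts and medians include, are not reported here.

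Groups were taken from the labels. Symbols, transcript lengths and GC content came from GENCODE M21, matched by Ensembl gene ID, and no coordinates were taken from it; those of the printed promoters are the RefSeq ones. CPM were counts scaled to the library size with TMM factors (edgeR 4.0.16), with a prior count of 2 for log2 values. Genes averaging 50 or more counts were tested with edgeR's quasi-likelihood test in 1 model of 4 groups per region with surrogate variables (svaseq of sva 3.50.0, 4 per region), in R 4.3.3, with Benjamini-Hochberg adjustment over all tested genes. Alternatives were DESeq2 1.42.0, other normalizations, filters and numbers of surrogate variables, offsets for GC content and length from loess curves (span 0.5), a replicate block, 2 groups only and each library left out in turn; leaving out libraries without surrogate variables, or 2 hippocampus libraries together, was chosen after seeing the data. Intervals are 1.96 SE wide on either side. The fits were tested on simulated data with changes in randomly chosen genes. Those data held no hidden variation, no GC or length trend and no genes varying together. They therefore do not show how surrogate variables treat a change shared by the subunit genes.

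Named genes were Ndufa2, any called member, and for each region and each of 4 contrasts the subunit gene and the assembly factor with the largest absolute log2 fold change; Ndufs7, Ndufb6, Ndufc2, Ndufb8 and the other genes named by an unadjusted p, a level or a fit without surrogate variables were chosen after their values were seen. The members, lists and tests were chosen with earlier results of these data known. The p-values of genes set a group difference against the spread between libraries of a group, after any surrogate variables in the fit. The study housed mice in shared cages and randomized diets within litters. Neither cage nor litter is given in the labels, so neither was modelled.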

Additional observations from a re-analysis of the deposited data

Results flagged for a closer look

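In each group the lowest or highest library was compared with the others by its gap to the nearest library divided by the range of the group. Of 84 groups of values tested, 5 had a library that stood apart, and chance alone would give about 1 in 20. In brainstem the lowest WT SD library of Ndufa2 (37.1 CPM, the others 46.6 to 49.7) had a ratio of 0.755, the lowest TG HFD library of Ndufa7 (22.9 CPM, median 38.6) one of 0.739, and the lowest TG SD library of Ndufaf4 (30.8 CPM, median 37.7) one of 0.669. The mean log2 CPM of the assembly factors had a lowest TG SD brainstem library with a ratio of 0.663. In hippocampus the lowest TG HFD library of Ndufa6 (33.9 CPM, median 40.8) had a ratio of 0.64.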

How the results depend on the processing

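Among the results with surrogate variables, the counts of called members remained at 0 with DESeq2, RLE scaling, other filters, the GC offset, 3 surrogate variables and each library left out. With fewer surrogate variables they did not. In brainstem between TG HFD and WT HFD, 1 subunit gene (Ndufs7) was called with 2 surrogate variables (25 genes in all), and with none 8 subunit genes and 1 assembly factor were called without WT HFD replicate 8 and 0 without any other library. In hippocampus 2 subunit genes were called with 0, 1 or 2 surrogate variables, with the length offset, with 2 groups only and with the replicate block (each without surrogate variables; 516, 596 and 573 genes in all), 1 with the GC and length offset, and 1 to 2 with each library left out; 1 assembly factor (Ndufaf8) was called with 1 or 2 surrogate variables. The cause was not tested.

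The labels do not say whether equal replicate numbers pair the samples. Same-numbered libraries correlated from -0.314 to 0.404 over the brainstem comparisons and from -0.0937 to 0.381 over the hippocampus comparisons. In hippocampus 2 to 4 of the 6 pairs of a comparison were above 0.1, and in brainstem 1 to 2 of 4 or 5. These few values do not settle the question. With the replicate block and surrogate variables no member was called, and the median of the brainstem subunit genes between TG HFD and WT HFD without surrogate variables was -0.185 with the block.

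None of the reversed log2 fold changes was called. With 0, 1 and 2 surrogate variables Ndufa2 between WT HFD and WT SD was 0.234, 0.172 and 0.0923 in brainstem and 0.0524, 0.0735 and 0.0741 in hippocampus (0.0031 with 3). With the GC offset it was 0.0489 and 0.0125; without surrogate variables and with the GC, length, and GC and length offsets it was 0.229, 0.187 and 0.189 in brainstem and 0.054, 0.0537 and 0.0601 in hippocampus; with the block 0.263 and 0.0554, and with 2 groups only 0.238 and 0.0464. In hippocampus Ndufa2 was 0.0272 (TG SD over WT SD) and 0.0155 (TG HFD over WT HFD) with the GC offset, 0.00256 with the filterByExpr filter on HFD, and between TG HFD and TG SD 0.00284 (DESeq2), 0.00155 (RLE), 0.00501 and 0.00668 (filters), 0.000823 (GC offset) and 0.0141 (block). Between TG HFD and WT HFD brainstem Ndufb3 was -0.0158 with 1 surrogate variable and -0.0439 with the GC offset and none, and Ndufaf4 -0.0258 and -0.016 with the GC and the GC and length offset and none. Ndufb7 between WT HFD and WT SD hippocampus was 0.0191 and 0.0203 with 1 and 2. With each library left out in turn, Ndufa2 ranged from -0.0825 to 0.0318 (TG SD over WT SD) and from -0.0404 to 0.0386 (WT HFD over WT SD) in brainstem, and in hippocampus from -0.0744 to 0.0225 (TG SD over WT SD), -0.108 to 0.0276 (TG HFD over WT HFD), -0.0555 to 0.0387 (WT HFD over WT SD) and -0.0239 to 0.0369 (TG HFD over TG SD). With surrogate variables, Ndufaf8 between TG SD and WT SD hippocampus ranged from 0.128 to 0.302 and Ndufaf3 between TG HFD and WT HFD hippocampus from -0.178 to -0.0776. The difference in GC slope of hippocampus libraries ranged from -0.183 to -0.144 between TG HFD and WT HFD, past the threshold in the exact permutation test only without WT HFD replicate 8 (adjusted p = 0.0173), and from -0.0377 to 0.0108 between TG HFD and TG SD. That of brainstem libraries ranged from -0.191 to -0.0994 between TG HFD and WT HFD.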
